A study of Danio rerio with 6 samples.

Results

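The prim-5 stage, 24 hours post fertilization (hpf), was compared with the shield stage, 6 hpf, in zebrafish primordial germ cells of the AB strain. These cells are the embryonic founders of eggs and sperm. They were collected by green fluorescence, for which the labels name no transgene. All mature microRNAs of the deposited table entered, 134 names in all, of which 7 belonged to the miR-430 family and 127 did not. Each stage had 2 small RNA libraries made by a microscale method, and 2 further libraries at 11 hpf, the 3-somite stage, served to estimate the spread between libraries. No treatment, mutation or control tissue was labelled, and the labels give the tissue as gonad at every stage. Whether libraries of 1 stage came from different embryos is not labelled. A p-value therefore measures the spread between the deposited libraries, and that spread may be technical.

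A microRNA is a short RNA that guides silencing proteins to messenger RNAs, mainly through its seed, the bases 2 to 8 from its 5′ end. Each hairpin precursor holds a 5p and a 3p arm, and usually one of the arms is kept in the silencing complex while the other is degraded. In zebrafish the miR-430 family is transcribed in great amount when the embryo's own genome is switched on, and it clears maternal messenger RNAs. In primordial germ cells some messenger RNAs, nanos3 among them, are protected from it by the germ cell protein Dnd1. Because 1 family held most reads, names and seeds outside it were tested on 2 scales: as a share of all microRNA reads, and as a share of the reads outside the miR-430 family.

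The mature sequences on which the results turned are given first, as the deposited table lists them, 5′ to 3′, with T for U and with the seed in capitals. The miR-430 names are shown as an abundant 3p arm and the pair of 5p arms that shared a seed and differed by 1 base:
miR-430a-3p: tAAGTGCTatttgttggggtag
miR-430i-5p: aCCCTCACaaaagcactgact
miR-430a-5p: aCCCTCACaaaggcactgact
The microRNAs past the threshold in the same direction on both scales were these, 8 higher and then 2 lower at 24 hpf:
miR-26a-5p: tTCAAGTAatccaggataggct
miR-92b-3p: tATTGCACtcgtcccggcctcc
miR-140-3p: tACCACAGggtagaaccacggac
miR-146b: tGAGAACTgaattccaagggtg
miR-182-5p: tTTGGCAAtggtagaactcaca
miR-206-3p: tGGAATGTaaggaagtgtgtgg
miR-16c-5p: tAGCAGCAtgtaaatattggag
miR-210-5p: aGCCACTGactaacgcacattg
miR-92a-5p: aGGTTGGGattggtagcaatgct
miR-92a-2-5p: aGGTTGGGatcggccgcaatgct
The next set passed on 1 scale alone or is close in sequence to a name that did. It shows that miR-92a-3p had the seed of miR-92b-3p, that the let-7 names shared 1 seed, and that miR-99 and miR-100-5p differed by 1 base:
miR-92a-3p: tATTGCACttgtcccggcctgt
let-7f: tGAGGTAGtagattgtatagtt
let-7c-5p: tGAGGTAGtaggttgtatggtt
let-7i: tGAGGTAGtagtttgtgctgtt
let-7b: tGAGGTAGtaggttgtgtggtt
let-7g: tGAGGTAGtagtttgtatagtt
miR-99: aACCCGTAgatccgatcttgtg
miR-100-5p: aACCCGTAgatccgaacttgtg
miR-143: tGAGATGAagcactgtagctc

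microRNA reads numbered 35718 and 63849 at 6 hpf against 66864 and 78973 at 24 hpf. Reads outside miR-430 were far fewer at 6 hpf, 4429 and 6008, than at 24 hpf, 17602 and 27293, so a low microRNA was measured with less precision at 6 hpf. Libraries of 1 stage did not always detect the same names: 7 names at 6 hpf, and 23 at 24 hpf, had at least 10 reads in 1 library and 0 in the other. Of the 134 names 69 had enough reads to be tested, 63 of them outside miR-430, and 65 were not tested. Of the 69, 11 had 0 reads at 6 hpf and a further 4 had 0 reads at 24 hpf, so these could only differ in 1 direction. Reads copied by PCR are not independent molecules, so intervals, floors and folds against 0 reads cover counting error only.

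The miR-430 family was the most abundant at both stages and held a smaller share at 24 hpf. It made up 87.6% and 90.6% of microRNA reads at 6 hpf against 73.7% and 65.4% at 24 hpf. The groups did not overlap. The 6 hpf mean was 89.1% ± 2.11 (SD, n = 2), and the 24 hpf mean was 69.6% ± 5.82 (SD, n = 2). It was thus 19.5 percentage points lower, with an exact two-sided permutation p of 0.333, the smallest that 2 libraries against 2 can give. The reads outside the family accordingly made up 12.4% and 9.41% at 6 hpf against 26.3% and 34.6% at 24 hpf, a mean 2.79 times as high.

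The 5p arms, which are the less abundant arms of the family, accounted for most of that difference. They held 17.7% and 18.3% of microRNA reads at 6 hpf against 2.79% and 2.71% at 24 hpf. Their mean was 15.2 percentage points lower at 24 hpf, or 77.9% of the family's 19.5 (exact two-sided permutation p = 0.333). The 3p arms held 69.9% and 72.3% at 6 hpf against 70.9% and 62.7% at 24 hpf. These ranges overlapped, and the mean was 4.33 points lower (exact two-sided permutation p = 0.667).

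Among single members, miR-430i-5p held 16.3% and 16.4% of all microRNA reads at 6 hpf against 2.56% and 2.31% at 24 hpf. It fell by 2.75 ± 0.17 (SE) on the log2 scale, a 6.70-fold decrease (edgeR quasi-likelihood test, adjusted p = 0.00055). miR-430a-5p held 1.38% and 1.78% at 6 hpf against 0.227% and 0.352% at 24 hpf, and it fell by 2.45 ± 0.39 (SE) on the log2 scale (edgeR adjusted p = 0.0187). Both 5p arms stood lower in each 24 hpf library than in either 6 hpf library. miR-430b-5p was listed at 0 and 31 reads at 6 hpf against 0 and 38 reads at 24 hpf. None of the 3p arms passed. miR-430a-3p held 48.2% and 48.9% at 6 hpf against 49.2% and 45.2% at 24 hpf, a log2 difference of -0.04 ± 0.07 (SE; edgeR adjusted p = 0.83) that was 0.09 with the authors' totals and -1.15 with TMM scaling, passing in neither. miR-430b-3p held 21.3% and 23% at 6 hpf against 20.8% and 17.0% at 24 hpf, a log2 difference of -0.23 ± 0.12 (SE; edgeR adjusted p = 0.23). The rarer miR-430c-3p held 0.358% and 0.398% at 6 hpf against 0.845% and 0.553% at 24 hpf, and its log2 difference of 0.89 ± 0.39 (SE), which was -0.20 with TMM scaling, did not pass either (edgeR adjusted p = 0.16). Because miR-430a-5p and miR-430i-5p differ by 1 base, the division of reads between them is uncertain, and their sum is tested under the seeds.

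**Figure D1:**
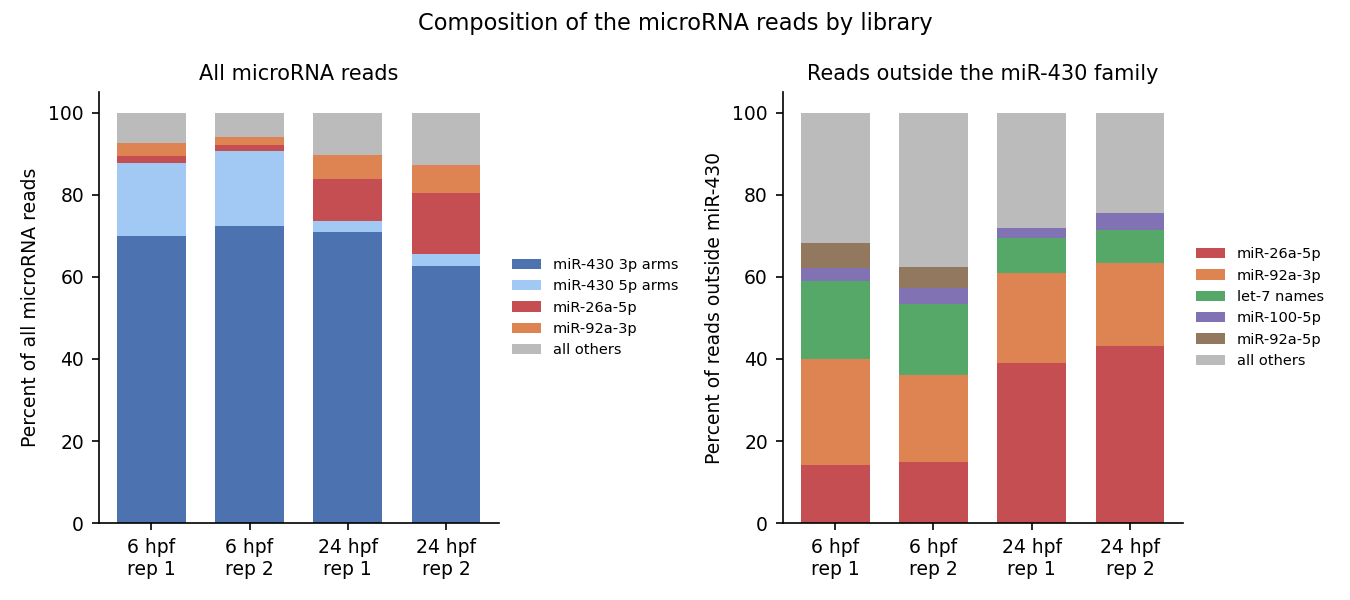
Composition of the microRNA reads in each of the 4 libraries. Stacked bars give the percent of all microRNA reads, and the percent of reads outside the miR-430 family, held by named microRNAs and families. The miR-430 5p arms take 17.7% and 18.3% at 6 hpf against 2.79% and 2.71% at 24 hpf, and outside the family miR-26a-5p takes 14.1% and 14.8% at 6 hpf against 38.9% and 43.2% at 24 hpf.

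Outside the family, 1 microRNA took most of the added share. miR-26a-5p, an abundant microRNA of differentiated tissues, was 11.0 percentage points higher at 24 hpf, or 56.4% of the 19.5 points. miR-92a-3p, a product of the miR-17-92 cluster and its paralogues, which promote proliferation in mammals, added 3.78 points, or 19.4%. Each of the next highest added less than 1 point: 0.674 for miR-100-5p, 0.663 for miR-92b-3p and 0.657 for miR-21.

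On the scale of all microRNA reads, 16 of 69 microRNAs passed, which is 23.2%. Of these 12 rose, 17.4% of those tested, and 4 fell, 5.8%, and 26 had an unadjusted p under 0.05. On the scale of reads outside miR-430, 16 of 63 passed, which is 25.4%, of which 8 rose and 8 fell, 12.7% each. Again 26 had an unadjusted p under 0.05. On both scales 10 names passed in the same direction, 62.5% of the calls of each scale: the 8 rises and 2 falls shown above. Libraries of the 2 stages did not overlap for 40 names or 58% on the first scale, 33 of them higher and 7 lower at 24 hpf, 47.8% and 10.1% of the 69. On the second scale they did not overlap for 43 names or 68.3%, 19 of them higher and 24 lower, 30.2% and 38.1% of the 63. The median log2 difference over all names tested was 0.73 on the first scale and -0.28 on the second. The scales differed by a median of 1.44 on the log2 scale, near the log2 ratio of 1.48 between the stages' shares outside miR-430, so 17 names were higher at 24 hpf on the first scale and lower on the second. With any 1 of the 4 libraries of these stages left out, 3 calls remained on the scale of all reads, miR-26a-5p, miR-92b-3p and miR-430i-5p. Outside miR-430 the calls then left were miR-26a-5p and miR-92b-3p, and the other calls therefore rest on all 4 libraries.

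miR-26a-5p rose on both scales. It held 1.75% and 1.40% of all microRNA reads at 6 hpf against 10.2% and 14.9% at 24 hpf, a log2 difference of 3.00 ± 0.27 (SE) or 8.01-fold (edgeR adjusted p = 0.00121). Of the reads outside miR-430 it held 14.1% and 14.8% at 6 hpf against 38.9% and 43.2% at 24 hpf, a log2 difference of 1.5 ± 0.08 (SE) or 2.84-fold (edgeR adjusted p = 0.000845). Both 24 hpf libraries stood above both 6 hpf libraries on each scale. It was second to miR-92a-3p outside the family at 6 hpf and first at 24 hpf. Its 3p arm, miR-26a-3p, was listed at 0 and 36 reads at 6 hpf and at 0 in both 24 hpf libraries. A second 3p name, miR-26a-2-3p, had 33 and 0 reads at 6 hpf and 0 in both 24 hpf libraries.

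miR-92b-3p was nearly undetected at 6 hpf, with 1 and 2 reads, and had 377 and 606 reads at 24 hpf. Outside miR-430 these were 0.0226% and 0.0333% at 6 hpf against 2.14% and 2.22% at 24 hpf. The pooled ratio was 224 on the scale of all reads, with a 95% counting interval of 76.3 to 1087 (edgeR adjusted p = 0.00118). Outside miR-430 it was 76.2, with an interval of 26 to 370 (edgeR adjusted p = 0.000845).

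The other rises on both scales came from few or no reads at 6 hpf. miR-140-3p, known from cartilage in fish and mammals, had 3 and 1 reads at 6 hpf against 96 and 134 at 24 hpf. Its log2 difference was 5.0 ± 1.08 (SE) on the scale of all reads (edgeR adjusted p = 0.0336) and 3.63 ± 0.88 outside miR-430 (edgeR adjusted p = 0.0465). Reads of miR-146b, a microRNA induced by inflammatory signals in mammals, were 0 in both 6 hpf libraries and 51 and 158 at 24 hpf. Against a floor of 3 reads over the stage it was at least 47.6-fold higher on the scale of all reads (edgeR adjusted p = 0.0336) and at least 16.2-fold higher outside miR-430 (edgeR adjusted p = 0.0370). miR-182-5p, expressed with miR-96 and miR-183 in hair cells and other sensory cells, had 0 reads at 6 hpf against 49 and 82 at 24 hpf. It was at least 29.8-fold and 10.2-fold higher on the 2 scales (edgeR adjusted p = 0.0350 and 0.0412). miR-206-3p, a skeletal muscle microRNA, had 0 reads at 6 hpf against 51 and 50 at 24 hpf, and was at least 23-fold and 7.83-fold higher (edgeR adjusted p = 0.0350 and 0.0465). miR-16c-5p, of the miR-15 and miR-16 family that restrains the cell cycle in mammals, went from 0 reads to 48 and 41, at least 20.3-fold and 6.90-fold higher (edgeR adjusted p = 0.0382 and 0.0465). miR-210-5p comes from the hairpin whose 3p arm responds to low oxygen in mammals. It went from 0 reads to 26 and 42, at least 15.5-fold and 5.27-fold higher (edgeR adjusted p = 0.0413 and 0.0370). Since some names had reads in 1 library of a stage and none in the other, these bounds are not firm. Over all reads miR-206-3p did not pass with TMM or RLE scaling (edgeR adjusted p = 0.0614 and 0.0515). miR-16c-5p passed on neither scale with TMM, RLE or the authors' totals, with edgeR adjusted p from 0.0502 to 0.0633.

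**Figure D2:**
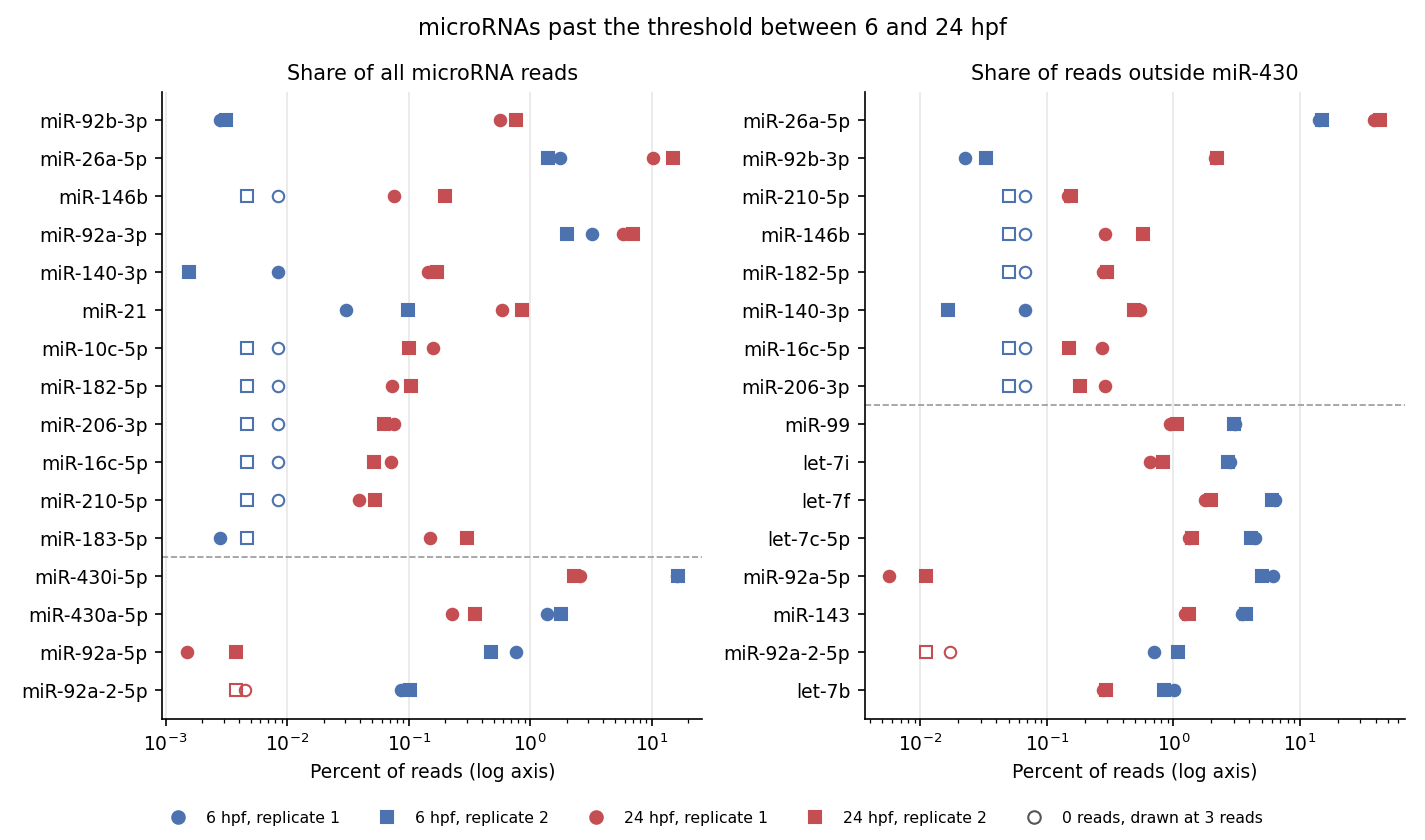
Level of each microRNA past the threshold, by library, as a percent of all microRNA reads (left) and of reads outside miR-430 (right). Axes are logarithmic, the dashed line parts rises from falls, each point is 1 library, and a count of 0 is drawn open at the level of 3 reads. The names that rose from 0 reads have open points at 6 hpf, and for miR-92a-2-5p the open points are at 24 hpf.

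The names that fell on both scales were the 5p arms of the miR-92a hairpins. miR-92a-5p had 273 and 304 reads at 6 hpf, 6.16% and 5.06% of the reads outside miR-430, and 1 and 3 reads at 24 hpf. It fell by 7.73 ± 1.69 (SE) on the log2 scale as a share of all reads (edgeR adjusted p = 0.0336) and fell by 9.18 ± 1.63 as a share outside miR-430 (edgeR adjusted p = 0.0296). miR-92a-2-5p, from a second copy of the hairpin, had 31 and 65 reads at 6 hpf against 0 in both 24 hpf libraries. It was at least 46.9-fold lower on the scale of all reads (edgeR adjusted p = 0.0336) and at least 138-fold lower outside miR-430 (edgeR adjusted p = 0.0370). With TMM scaling over all reads it did not pass (edgeR adjusted p = 0.0505).

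Hairpins with both arms named gave the same reads as a ratio of arms. Of the reads of miR-92a-5p and miR-92a-3p together, miR-92a-5p held 19.2% and 19.3% at 6 hpf against 0.0257% and 0.0544% at 24 hpf. The 5p arm of the second copy, miR-92a-2-5p, is not in that share, and no separate 3p name of that copy was listed. The 5p arm of miR-430a held 2.78% and 3.52% at 6 hpf against 0.46% and 0.773% at 24 hpf. For both hairpins the groups did not overlap, with an exact two-sided permutation p of 0.333 each. Of the 13 hairpins with a value in each stage and at least 50 reads, 4 did not overlap between stages. miR-140 and miR-430i were the others. The 3p reads of miR-430i numbered 0 and 0 at 6 hpf against 1 and 1 at 24 hpf. Its 3p sequence is 1 base away from the abundant miR-430a-3p, so its 3p reads may be listed there. The 5p shares of miR-430a and miR-430i taken singly are therefore uncertain. All 5p arms of the family made up 20.2% and 20.2% of miR-430 reads at 6 hpf against 3.79% and 4.15% at 24 hpf. The 5p arm of miR-140 held 0% and 0% at 6 hpf, of 3 reads and 1 read, and 2.04% and 2.90% at 24 hpf. miR-199, miR-181a, miR-145, miR-30e and miR-20a overlapped, so a lower 5p share was not seen in every hairpin.

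**Figure D3:**
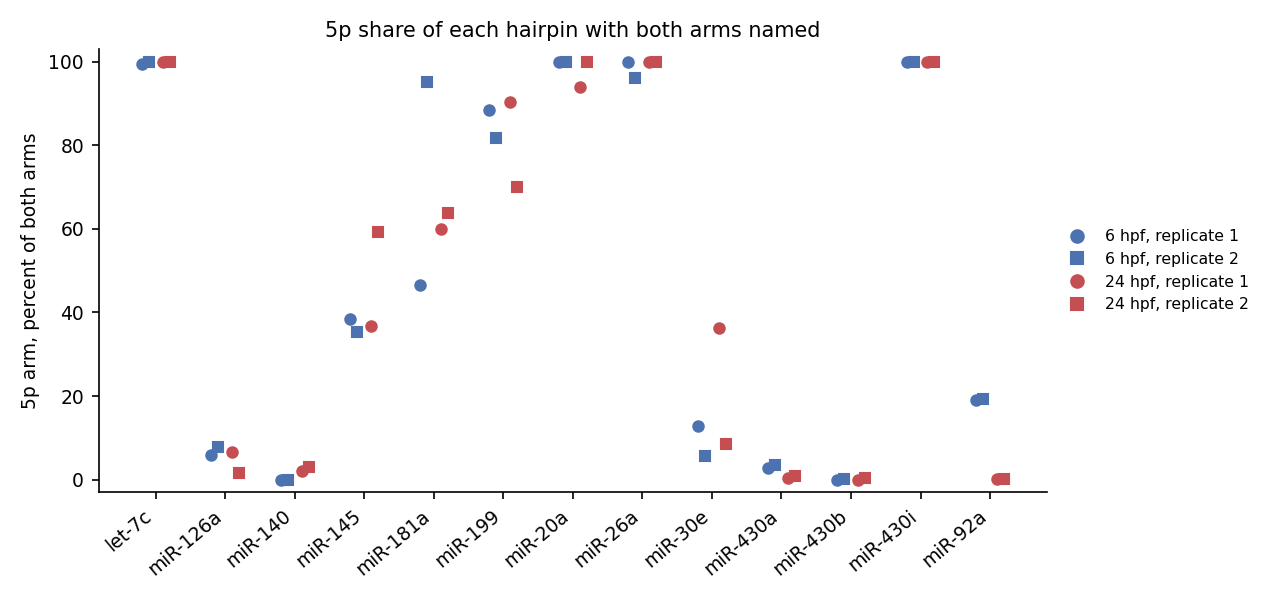
Percent of each hairpin's reads that were of the 5p arm, by library, for 13 hairpins with both arms named. Points are libraries, coloured by stage. For miR-92a, counted without miR-92a-2-5p, both 6 hpf libraries stand at 19.2% and 19.3% and both 24 hpf libraries near 0.

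Several calls depended on the scale. As a share of all reads 4 names rose that did not pass outside miR-430. miR-92a-3p held 3.23% and 2.0% of all reads at 6 hpf against 5.81% and 6.97% at 24 hpf, a log2 difference of 1.29 ± 0.27 (SE; edgeR adjusted p = 0.0336). Outside miR-430 it held 26% and 21.2% at 6 hpf against 22.1% and 20.2% at 24 hpf, a log2 difference of -0.16 ± 0.16 (SE; edgeR adjusted p = 0.457), which was positive with TMM scaling, 0.65, and did not pass there. It was thus 2.45-fold higher on 1 scale and overlapped on the other. miR-21, an abundant microRNA of many cell types that is linked to growth in mammals, had 11 and 63 reads at 6 hpf against 394 and 674 at 24 hpf. Its log2 difference was 3.46 ± 0.75 (SE) on the scale of all reads (edgeR adjusted p = 0.0336) and 1.85 ± 0.72 outside miR-430 (edgeR adjusted p = 0.131). It stood higher in both 24 hpf libraries on each scale. miR-10c-5p, from a Hox gene cluster, had 0 reads at 6 hpf against 107 and 79 at 24 hpf, at least 42.3-fold higher on the scale of all reads (edgeR adjusted p = 0.0336), and its adjusted p outside miR-430 was 0.0549 by edgeR. miR-183-5p, a sensory organ microRNA like miR-182-5p, had 1 and 0 reads at 6 hpf against 100 and 240 at 24 hpf. Its ratio was 232 with a 95% counting interval of 41.4 to 9195 (edgeR adjusted p = 0.0467 on the scale of all reads and 0.0791 outside miR-430). With TMM scaling over all reads none of these 4 passed, with edgeR adjusted p from 0.0717 for miR-10c-5p to 0.298 for miR-92a-3p.

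As a share of the reads outside miR-430, 6 names fell that did not pass as a share of all reads: let-7f, let-7i, let-7c-5p, let-7b, miR-99 and miR-143. The let-7 microRNAs are known for promoting differentiation and rise late in development in many animals, miR-99 belongs to a family often carried in clusters with let-7, and miR-143 is known from smooth muscle in mammals. let-7f held 6.37% and 6.08% outside miR-430 at 6 hpf against 1.77% and 1.98% at 24 hpf, and fell by 1.73 ± 0.22 (SE) on the log2 scale, a 3.32-fold decrease (edgeR adjusted p = 0.0108). As a share of all reads it held 0.790% and 0.572% at 6 hpf against 0.467% and 0.684% at 24 hpf, which overlapped. miR-99 held 3.05% and 3.00% outside miR-430 at 6 hpf against 0.943% and 1.07% at 24 hpf, and fell by 1.58 ± 0.19 (SE) on the log2 scale (edgeR adjusted p = 0.0108). It lies 1 base from miR-100-5p, so their division of reads is uncertain. Their shared seed ACCCGTA did not pass outside miR-430, with a log2 difference of -0.57 ± 0.24 (SE; edgeR adjusted p = 0.161). Over all reads that seed had a log2 difference of 0.96 and did not pass (edgeR adjusted p = 0.171). The other 4 of the 6 names fell by 1.49 to 1.89 on the log2 scale, with edgeR adjusted p from 0.0108 to 0.0465, and none of their libraries overlapped.

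Whether these 6 passed depended on the total they were divided by. As a share of all reads their log2 differences lay between -0.39 for let-7i and 0.00 for miR-143, and none passed. In the authors' RPM values, which use a larger total of each library, let-7f stood at 26.9 and 30.1 RPM at 6 hpf against 26.6 and 25.4 RPM at 24 hpf. miR-99 stood at 12.9 and 14.8 RPM at 6 hpf against 14.2 and 13.8 RPM at 24 hpf, which overlapped. With those totals in the fit the 6 log2 differences were -0.31 to 0.10, positive for miR-99 and miR-143, and none passed by edgeR. With miR-26a-5p also taken out of the total, let-7f, let-7i, let-7c-5p and miR-99 still passed, with log2 differences of -1.35 to -1.04 (edgeR adjusted p = 0.048 each), and let-7b and miR-143 did not. With TMM scaling over all reads let-7f, let-7i and miR-99 passed as lower, with log2 differences of -1.53 to -1.22 (edgeR adjusted p from 0.0391 to 0.0453). With RLE scaling over all reads let-7f, let-7i, miR-99 and let-7c-5p passed as lower. Their log2 differences were -0.99 to -0.68 (edgeR adjusted p from 0.0338 to 0.0362). With TMM scaling outside miR-430 itself, 3 of the 6 no longer passed, miR-99, miR-143 and let-7b (edgeR adjusted p = 0.0536, 0.0819 and 0.128), and with RLE scaling let-7b did not (0.0633). The authors' RPM of all reads outside miR-430 was 423 and 496 at 6 hpf against 1503 and 1286 at 24 hpf, and without miR-26a-5p it was 363 and 422 at 6 hpf against 918 and 730 at 24 hpf. On that total the miR-430 family overlapped between stages, at 2985 and 4771 RPM at 6 hpf against 4205 and 2434 RPM at 24 hpf. miR-26a-5p stood at 59.5 and 73.6 RPM at 6 hpf against 585 and 555 RPM at 24 hpf, 8.57 times as high, and miR-92a-3p passed (log2 difference 1.46, edgeR adjusted p = 0.041). These values are relative to reads, so a lower level of 1 microRNA and higher levels of others in the same total cannot be told apart. The number of germ cells and the RNA per cell cannot be read from them.

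**Figure D4:**
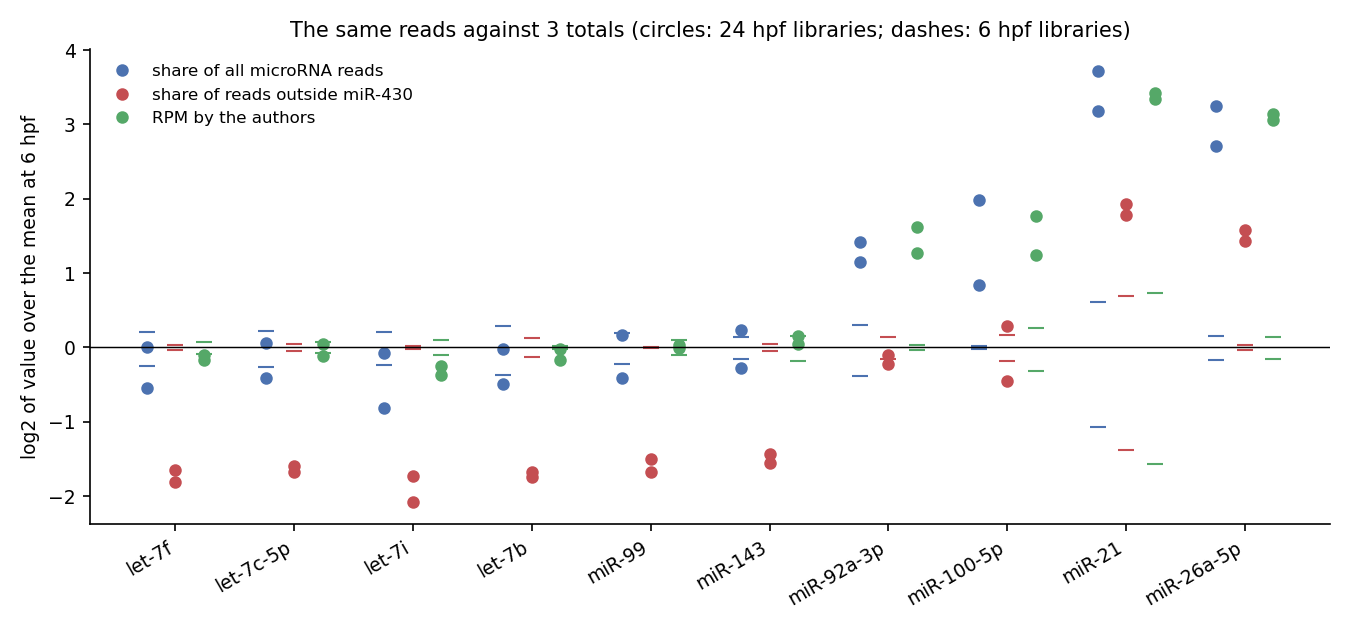
The same 10 microRNAs on 3 totals: all microRNA reads, reads outside miR-430 and the authors' library totals. The vertical axis is the log2 of each library's value over the 6 hpf mean, with circles for 24 hpf and dashes for 6 hpf libraries. For miR-26a-5p both circles lie above both dashes on each total, while for let-7f they lie more than 1 log2 unit below the dashes on the second total alone.

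Summing the reads of names with 1 seed sets aside how reads were divided between close relatives. Whether a read matching several names was counted more than once or dropped is not known, so the sums keep that doubt. Of 47 seeds tested as shares of all reads, 6 passed, 12.8%, of which 4 rose, 8.51%, and 2 fell, 4.26%. The seed CCCTCAC of the miR-430 5p arms fell by 2.72 ± 0.18 (SE) on the log2 scale (edgeR adjusted p = 0.00021). The seed TCAAGTA of miR-26 rose by 3.01 ± 0.27 (edgeR adjusted p = 0.000697). The seed ATTGCAC, shared by miR-25-3p, miR-363-3p, miR-92a-3p and miR-92b-3p, held 3.44% and 2.23% at 6 hpf against 7.35% and 8.42% at 24 hpf, and rose by 1.48 ± 0.25 (SE) on the log2 scale (edgeR adjusted p = 0.0171). As a share of reads outside miR-430 this seed held 27.8% and 23.7% at 6 hpf against 27.9% and 24.4% at 24 hpf, a log2 difference of 0.02 ± 0.18 (SE; edgeR adjusted p = 0.943). The seed GGTTGGG of the miR-92a 5p arms fell on both scales, and AGCTTAT of miR-21 and ACCACAG of miR-140-3p rose on the scale of all reads.

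Outside miR-430, 5 of 44 seeds passed, 11.4%, of which 2 rose, 4.55%, and 3 fell, 6.82%. The seed TCAAGTA rose by 1.51 ± 0.08 (SE) on the log2 scale (edgeR adjusted p = 0.000888), and GCCACTG of miR-210-5p passed as higher (edgeR adjusted p = 0.0435) but in 0 of 3 other settings and in 1 of 6 fits without a library, where adjusted p reached 0.398. The seed GAGGTAG, the sum of 7 let-7 names, held 18.9% and 17.4% at 6 hpf against 8.49% and 8.0% at 24 hpf and fell by 1.14 ± 0.13 (SE) on the log2 scale (edgeR adjusted p = 0.0135). As a share of all reads the same seed was higher at 24 hpf, by 0.33 ± 0.34 (SE), but lower with TMM scaling, -0.69, and it did not pass (edgeR adjusted p = 0.586). The seed GAGATGA of miR-143 fell outside miR-430 (edgeR adjusted p = 0.0435). On that scale GAGATGA and GGTTGGG each passed in 1 of 3 other settings, GAGGTAG in 2 of 3 and TCAAGTA in all 3. Of the seeds of the 8 names that rose on both scales, TCAAGTA alone passed on both. ATTGCAC and ACCACAG did not pass outside miR-430, and GCCACTG did not pass over all reads. The seeds of miR-146b, miR-182-5p, miR-206-3p and miR-16c-5p passed on neither scale. TTGGCAA, held by miR-182-5p alone, had edgeR adjusted p of 0.0562 over all reads and 0.0558 outside miR-430. GAGAACT, of miR-146a and miR-146b, had log2 differences of -0.26 over all reads and -1.93 outside. The seed AAGTGCT of the miR-430 3p arms, close to the seed AAAGTGC of miR-17a-5p and miR-20a-5p but shifted by 1 base, had a log2 difference of -0.09 ± 0.08 (SE; edgeR adjusted p = 0.543). AAAGTGC held 0.0784% and 0.0533% of all reads at 6 hpf against 0.325% and 0.414% at 24 hpf, and did not pass (edgeR adjusted p = 0.0821). Outside miR-430 its log2 difference was 1.02 and did not pass either (edgeR adjusted p = 0.259).

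Within families, members did not all do the same. Of the 14 names of the miR-17-92 cluster and its paralogues 8 were tested. As shares of all reads 2 rose, miR-92a-3p and miR-92b-3p, and the 5p arms miR-92a-5p and miR-92a-2-5p fell, so 4 of 8 passed beside 23.2% of all 69 names. Outside miR-430 1 rose and 2 fell, so 3 of 8 passed beside 25.4% of all 63, and the list's median log2 difference was 1.5 and 0.07 on the 2 scales. miR-25-3p had 76 and 93 reads at 6 hpf against 479 and 355 at 24 hpf, a log2 difference of 1.70 on the scale of all reads that did not pass (edgeR adjusted p = 0.068). Outside miR-430 its log2 difference was 0.30 and did not pass either (edgeR adjusted p = 0.68). Of 9 let-7 names 6 were tested, of which none passed as a share of all reads, beside 23.2% of all names, and 4 fell outside miR-430, beside 12.7%. The list's median log2 difference was -0.19 and -1.67 on the 2 scales. let-7g ran the other way, with 0 reads at 6 hpf against 336 and 297 at 24 hpf, at least 144-fold higher as a share of all reads. It did not pass over all reads (edgeR adjusted p = 0.094) or outside miR-430 (edgeR adjusted p = 0.169). let-7a held 4.34% and 3.58% outside miR-430 at 6 hpf against 2.36% and 2.40% at 24 hpf, and did not pass (edgeR adjusted p = 0.0791), whereas with the authors' totals it was higher by 0.88 on the log2 scale and passed (edgeR adjusted p = 0.041). let-7a, let-7c-5p, let-7f and let-7g lie 1 base from one another or from another member, so their division of reads is uncertain.

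The miR-99, miR-100 and miR-125 list had 4 names tested. None passed as a share of all reads, beside 23.2% of all names, and miR-99 alone fell outside miR-430, beside 12.7%. miR-100-5p had 131 and 227 reads at 6 hpf against 432 and 1124 at 24 hpf, with a log2 difference of 1.52 on the scale of all reads and -0.04 outside miR-430, where TMM scaling gave 0.79, and it passed on neither. With the authors' totals it was higher by 1.52 on the log2 scale and passed. The edgeR adjusted p was 0.042 with the miR-430 names in that fit and 0.043 without them. miR-125a had 0 reads at 6 hpf against 35 and 42 at 24 hpf, and miR-125b-5p had 25 and 24 at 6 hpf against 121 and 113 at 24 hpf, and neither passed. The log2 difference of miR-125b-5p was 1.59 over all reads and 0.19 outside miR-430, where it overlapped. Of the Hox-cluster list 3 of 6 names were tested, and miR-10c-5p alone rose, on the scale of all reads, beside 17.4% of all names. miR-10b-5p had 23 and 20 reads at 6 hpf against 89 and 234 at 24 hpf without passing, and miR-10a-5p, 1 base from miR-10c-5p, had 41 and 66 and then 132 and 190. The seed ACCCTGT, shared by miR-10a-5p, miR-10b-5p, miR-10c-5p and miR-10d-5p, passed on neither scale. Its log2 difference was 1.91 over all reads (edgeR adjusted p = 0.0571) and 0.44 outside miR-430 (edgeR adjusted p = 0.246). Of the miR-15 and miR-16 list 4 names were tested. Of them miR-16c-5p alone rose on each scale, beside 17.4% and 12.7% of all names. miR-15b-3p went from 99 and 69 reads at 6 hpf to 0 in both 24 hpf libraries and miR-16b from 0 reads to 35 and 150, without passing. miR-15b-3p was at least 82.0-fold lower as a share of all reads (edgeR adjusted p = 0.0937), and its adjusted p outside miR-430 was 0.111 by edgeR. miR-16b and miR-16c-5p lie 1 base apart, so their division of reads is uncertain.

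None of the 4 miR-30 names tested passed on either scale, nor did any of 3 miR-181 names, beside 23.2% and 25.4% of all names, so lists this small could be without a call. miR-146a had 105 and 662 reads at 6 hpf against 174 and 455 at 24 hpf, so libraries of 1 stage differed widely. Over all reads it overlapped, with a log2 difference of -0.67 (edgeR adjusted p = 0.768). Outside miR-430 it was lower at 24 hpf without overlap, with a log2 difference of -2.33 ± 1.10 (SE), and did not pass (edgeR adjusted p = 0.180). miR-130c-5p had 53 and 45 reads at 6 hpf against 0 and 36 at 24 hpf, miR-222a-3p had 0 and 1 and then 117 and 81, and miR-101a had 2 and 2 and then 22 and 33, and none of these passed. miR-2189 had 0 reads at 6 hpf against 145 and 99 at 24 hpf, and its adjusted p by edgeR was 0.0567 on the scale of all reads and 0.117 outside miR-430. miR-103 had 48 and 60 reads at 6 hpf against 59 and 115 at 24 hpf, and its log2 difference outside miR-430 of -1.46 did not pass (edgeR adjusted p = 0.0549).

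Markers of other tissues were present in part, and 14 marker names were tested. Of these 4 rose as shares of all reads, beside 17.4% of all names tested, and 3 rose and 1 fell outside miR-430, beside 12.7% each. Among the rises, miR-182-5p and miR-206-3p had 0 reads at 6 hpf and could only rise. The sensory organ list, of which 2 of 3 names were tested, summed to 0.0028% and 0.0031% of all reads at 6 hpf against 0.262% and 0.409% at 24 hpf, and both names tested rose on that scale, 1 of them on the other. The third, miR-96-5p, had 0 and 2 reads at 6 hpf against 26 and 1 at 24 hpf. Of the muscle list, miR-133 was not among the deposited names. Both names found were tested: miR-206-3p rose, while miR-1, with 10 and 10 reads at 6 hpf against 8 and 27 at 24 hpf, did not pass. miR-1 overlapped over all reads and was lower without overlap outside miR-430, with a log2 difference of -1.42. The mesenchyme, cartilage and smooth muscle list had 6 of 8 names tested: miR-140-3p rose on both scales, miR-143 fell outside miR-430, and miR-199-5p and miR-145-3p did not pass. This list summed to 0.792% and 0.587% of all reads at 6 hpf against 0.781% and 0.994% at 24 hpf, which overlapped. Outside miR-430 it summed to 6.39% and 6.24% at 6 hpf against 2.97% and 2.88% at 24 hpf, so miR-140-3p ran against the sum there. Of the neural list 1 of 5 names was tested, miR-128-3-5p, with 15 and 0 reads at 6 hpf and 0 in both 24 hpf libraries. It did not pass (edgeR adjusted p = 0.231 over all reads and 0.211 outside miR-430). The list ran the other way, summing to 20 and 2 reads at 6 hpf against 74 and 45 at 24 hpf. It held 0.0560% and 0.00313% of all reads at 6 hpf against 0.111% and 0.0570% at 24 hpf. Outside miR-430 the list overlapped, with 0.452% and 0.0333% at 6 hpf against 0.420% and 0.165% at 24 hpf. Its defining member miR-124-3p was at 0 in all but 1 library, where it had 32 reads. The epithelium list summed to 18 and 59 reads at 6 hpf against 19 and 18 at 24 hpf, with miR-200b-3p tested and not passing. As shares its sum was lower without overlap on both scales. It held 0.0504% and 0.0924% of all reads at 6 hpf against 0.0284% and 0.0228% at 24 hpf. Outside miR-430 it held 0.406% and 0.982% at 6 hpf against 0.108% and 0.0660% at 24 hpf. The endothelial miR-126a-3p had 16 and 24 reads at 6 hpf against 14 and 58 at 24 hpf, the lens and eye marker miR-184 had 0 and 1 and then 0 and 45, and the liver marker miR-122 had 15 and 0 and then 0 and 0. The first 2 of these did not pass and the last was not tested. miR-126a-3p overlapped over all reads and was lower without overlap outside miR-430, with a log2 difference of -1.37. The germ cell and gonad marker miR-202 and the blood markers miR-144, miR-451, miR-223 and miR-142 were sought but were not among the deposited names. The label of the cells could therefore not be checked against a germ cell microRNA. The neural miR-138 and miR-219 and the epithelial miR-141, miR-203 and miR-205 were not among them either. Why these names are missing is not known. The part of other cells in the rises of miR-182-5p, miR-183-5p, miR-206-3p and miR-140-3p was not tested.

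More names were detected at 24 hpf, while the reads outside miR-430 were spread less evenly over them. At least 1 read was found for 66 and 67 names outside the family at 6 hpf and for 94 and 88 at 24 hpf. With every library thinned to 4429 reads outside miR-430 the numbers were 66.0 and 62.5 at 6 hpf against 86.1 and 67.1 at 24 hpf, so the mean difference was 12.4 names at equal depth and 24.5 before thinning. At equal depth the second 24 hpf library, at 67.1, stood close to the first 6 hpf library, at 66.0. The effective number of microRNAs, the exponential of the Shannon entropy of the shares, was 18.2 and 18.0 outside miR-430 at 6 hpf against 12.7 and 10.5 at 24 hpf. On all microRNA reads it ran the other way, 5.34 and 4.84 at 6 hpf against 6.33 and 7.24 at 24 hpf. Without miR-26a-5p the number outside miR-430 was 18.3 and 18.1 at 6 hpf against 21.6 and 18.8 at 24 hpf, so the lower value at 24 hpf went with that 1 microRNA. Each of these has an exact two-sided permutation p of 0.333.

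The order of the most abundant names outside miR-430 shows the same shift. At 6 hpf the first 10 were miR-92a-3p with a mean of 23.6%, miR-26a-5p with 14.5%, miR-146a with 6.69%, let-7f with 6.22%, miR-92a-5p with 5.61%, let-7c-5p with 4.27%, let-7a with 3.96%, miR-143 with 3.63%, miR-100-5p with 3.37% and miR-99 with 3.02%. At 24 hpf they were miR-26a-5p with 41.1%, miR-92a-3p with 21.1%, miR-100-5p with 3.29%, let-7a with 2.38%, miR-21 with 2.35%, miR-92b-3p with 2.18%, miR-25-3p with 2.01%, let-7f with 1.88%, let-7g with 1.5% and let-7c-5p with 1.38%. The place of miR-146a at 6 hpf came from 1 library, where it held 11.0% against 2.37% in the other.

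Of the 12 names that rose as a share of all reads, 11 began with T in the deposited sequence, and of the 4 that fell, none did, against 42 of the 69 tested or 60.9%. Outside miR-430, 7 of the 8 that rose and 5 of the 8 that fell, 62.5%, began with T, against 40 of the 63 tested or 63.5%, so the falls stood near the share of all names there. Weighted by reads, names beginning with T made up 72.2% and 75.6% of the reads outside miR-430 at 6 hpf against 87.6% and 88.7% at 24 hpf (exact two-sided permutation p = 0.333). A base at that position is a description of the sequences that passed, and all 4 that fell as shares of all reads were 5p arms of miR-430 or miR-92a.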

How the data were processed

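Small RNA counts of 6 libraries of zebrafish primordial germ cells were used. The authors deposited whole-number read counts per mature microRNA, without normalization as far as the file shows, beside RPM values and the mature sequences. The deposited RPM values are the counts multiplied by a constant for each library, from which follow library totals of 10481749 and 12124193 reads (6 hpf), and of 11713902 and 21230244 (24 hpf). The submitters' processing notes name Bowtie 1.0.0-5 and danRer11. Neither which reads form those totals nor how reads matching several microRNAs were treated is given in the sources used here. No coordinates are reported, since no genome of that build was used here.

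The quasi-likelihood test of edgeR 4.0.16 (R 4.3.3) was run on the counts of all 6 libraries, with a term for stage alone, for 24 hpf minus 6 hpf, with Benjamini-Hochberg adjustment over all names tested and a threshold of 0.05. The filter was filterByExpr at a minimum count of 10. The offset was the library's microRNA reads, or its reads outside the 7 miR-430 names, with no further scaling factor. Standard errors are the log2 difference over the square root of F. Folds against 0 reads used a floor of 3 reads over the stage, and with 1 to 3 reads an exact 95% counting interval. Single values were compared by exact permutation tests in SciPy 1.17.1.

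Alternatives were TMM and RLE scaling, the authors' totals, DESeq2 1.42.0, robust and newer quasi-likelihood fits, no filter and a stricter one, the replicate number as a term, fits of the 2 stages alone and each library left out. A total without miR-26a-5p, and a filter that asks for reads in each library of at least 1 stage, were added after seeing the data. The members, lists and tests were chosen with earlier results of these data known. Named are up to 12 rises and 12 falls per scale, the 10 most abundant names per stage, miR-430 members with at least 10 reads, up to 4 members per list, and the 3 highest and 3 lowest differences. Scripts were tested on simulated data. Figures were drawn with matplotlib 3.10.9.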

Additional observations from a re-analysis of the deposited data

How the results depend on the processing

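Against 16 calls as shares of all reads, no filter gave 7 and asking for reads in both libraries of a stage 27. The 12 rises became 6 by TMM, 6 by RLE, 4 with no filter and 22 with reads in both libraries, and the 4 falls became 8 by RLE. By TMM the split was 6 rises and 6 falls. Against 16 calls outside miR-430, DESeq2 gave 25, the robust fit 10, no filter 7 and the 2 stages alone 28. The 8 rises became 15 with the authors' totals, 3 by the robust and by the newer fit, 2 with no filter, 5 with a stricter filter and 16 with the 2 stages alone. The 8 falls became 5 by TMM, 2 with the authors' totals, 15 by DESeq2, 5 with no filter and 12 with the 2 stages alone. Against 6 seeds of all reads, the 2 stages alone gave 15, with 12 rises, and TMM 2 rises and 4 falls. Against 5 seeds outside miR-430, TMM gave 1, with 1 rise and 0 falls. The miR-430 3p arms alone gave -4.33 percentage points in place of -19.5. Names detected outside miR-430 were 24.5 more at 24 hpf and 12.4 more when thinned. At 5 reads or above they were 29.5 more before thinning and 13.9 more when thinned. Scaling moved the median log2 difference of all reads, 0.73, to -0.36 by TMM, 0.18 by RLE and 0.88 with the authors' totals, and that outside miR-430, -0.28, to 0.51, 0.45 and 1.31, or 0.15 without miR-26a-5p. The cause of these shifts was not tested.

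Some values that did not pass, or passed on 1 scale, changed sign. As shares of all reads, TMM gave -1.13 for miR-143, -1.09 for miR-103, -0.36 for let-7a, -0.20 for miR-430c-3p and -0.69 for the let-7 seed GAGGTAG. RLE gave -0.58 for miR-143 and -0.55 for miR-103, and the authors' totals gave 0.0101 for miR-99 and 0.0897 for miR-430a-3p. Outside miR-430, miR-92a-3p was 0.65 by TMM, 0.57 by RLE, 1.46 with the authors' totals and 0.38 without miR-26a-5p. miR-100-5p was 0.79, 0.68, 1.52 and 0.52 under the same 4. The authors' totals gave 0.0101 for miR-99, 0.10 for miR-143, 0.13 for miR-103 and 0.88 for let-7a, and TMM gave 0.0828 for let-7a.

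Leaving out 1 library gave 3 to 24 calls of all reads, 2 to 19 rises and 1 to 5 falls, and outside miR-430 2 to 28 calls, 2 to 16 rises and 0 to 12 falls. Seeds gave 2 to 15 calls of all reads, 1 to 12 rises and 1 to 3 falls, and 1 to 10 outside miR-430, 1 to 5 rises and 0 to 5 falls. The highest counts came without an 11 hpf library, and where 1 library of a stage remained it was taken to vary like those of other stages. The family's difference stayed between -23.7 and -15.4 percentage points. As shares of all reads, log2 differences changed sign within -0.53 to 0.13 for let-7b, -0.41 to 0.11 for let-7c-5p, -0.54 to 0.0091 for let-7f, -0.27 to 0.23 for miR-143, -0.41 to 0.17 for miR-99, -0.37 to 0.35 for miR-103 and -0.10 to 0.0187 for miR-430a-3p. Outside miR-430 they did so within -0.46 to 0.29 for miR-100-5p, -0.33 to 0.74 for miR-25-3p and -0.0874 to 0.14 for the seed ATTGCAC.

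With the replicate number as a block, 4 calls of all reads were left (2 rises, 2 falls), and outside miR-430 2 (2 rises, 0 falls). Seeds gave 2 (1 rise, 1 fall) on each scale. The labels do not say that a number marks a shared collection, and deviations of libraries with the same number correlated at 0.16 between 6 and 11 hpf, 0.05 between 6 and 24 hpf and -0.27 between 11 and 24 hpf, so the numbers were not taken as a pairing. Depth limits the rare names most: with 4429 reads outside miR-430 in the shallowest library, a count of 0 says little.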

Other observations

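The 11 hpf libraries, which entered the fits but no comparison here, gave these values. miR-430 5p arms held 2.38% and 2.98% of microRNA reads at 11 hpf, close to the 24 hpf values of 2.79% and 2.71%. miR-26a-5p stood at 24.1% and 24.9% of the reads outside miR-430, between the values of the other stages. miR-92b-3p had 123 and 93 reads and miR-146b had 32 and 11, also between them. miR-182-5p, miR-10c-5p, miR-16c-5p and miR-210-5p had 0 reads in both 11 hpf libraries. miR-92a-5p had 28 reads in 1 library and 1 in the other, and miR-92a-2-5p had 0 in both. let-7g was listed at 0 and 127 reads, and miR-15b-3p at 0 and 63.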
